A study of Mus musculus with 32 samples.

Results

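Haemoglobin and red cell genes were read in mouse frontal cortex as a measure of the blood left in the tissue. The members were 5 genes of the 23958 in the count table, chosen by name: the adult alpha globins Hba-a1 and Hba-a2, the adult beta globins Hbb-bs and Hbb-bt, and Alas2, the haem synthesis enzyme of red cell precursors. The study gave mice the gut microbiota of 3 primate species and sequenced RNA from the prelimbic and infralimbic cortex of 32 animals. Human microbiota went to 12 mice (4 in batch A and 8 in batch B), squirrel monkey (Saimiri boliviensis) microbiota to 8 mice (4 in batch C and 4 in batch D) and macaque (Macaca mulatta) microbiota to 12 mice (5 in batch E and 7 in batch F). What the labels call a batch is not defined further, and strain, sex, age, perfusion and the microbial state of the hosts were not given in the sources used here. All groups were inoculated, so there was no group without donor microbiota. Every batch held mice of 1 donor species, so donor species and batch cannot be told apart, and p-values between donor groups measure the spread between these mice only. Replicate numbers below were given in sample order and only name a mouse.

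Haemoglobin, the oxygen carrier of red cells, is built from pairs of alpha and beta chains, each holding a haem group. Mature mammalian red cells have lost their nucleus, but reticulocytes, the youngest cells in circulation, still carry RNA, most of it globin messenger. Blood left in the vessels of a dissected brain therefore brings globin transcripts into a bulk RNA sample, and low globin expression has also been described in neurons and glia, so the counts here cannot be assigned to a cell type. In a bulk sample, fewer cells of a type and less RNA per cell cannot be told apart.

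The promoters are shown as a description of the globin genes, with Alas2 for comparison. A link between these sequences and the levels in this tissue was not tested. The sequences are RefSeq windows of the 250 bases before the start of each gene in GRCm38.p6, an older build than that of the counts. All 5 members were matched. Capitals mark 4 motifs searched on both strands. GATAAG is a core recognised by the GATA family of factors. CACCC is a motif bound by Klf1 and its relatives. CCAAT is a common promoter box. The letters ATATAA stand for a TATA-like box. Hba-a1 lies at chr11:32283422-32283671 on the plus strand, Hbb-bs at chr7:103827929-103828178 and Hbb-bt at chr7:103813924-103814173, both on the minus strand, and Alas2 at chrX:150547167-150547416 on the plus strand. Each sequence is written 5′ to 3′ on the strand of its gene.
Hba-a1: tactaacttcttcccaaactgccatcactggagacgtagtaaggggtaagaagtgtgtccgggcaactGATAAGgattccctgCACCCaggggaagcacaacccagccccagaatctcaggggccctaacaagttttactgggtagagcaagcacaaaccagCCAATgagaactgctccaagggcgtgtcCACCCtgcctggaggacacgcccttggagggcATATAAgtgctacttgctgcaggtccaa
Hbb-bs: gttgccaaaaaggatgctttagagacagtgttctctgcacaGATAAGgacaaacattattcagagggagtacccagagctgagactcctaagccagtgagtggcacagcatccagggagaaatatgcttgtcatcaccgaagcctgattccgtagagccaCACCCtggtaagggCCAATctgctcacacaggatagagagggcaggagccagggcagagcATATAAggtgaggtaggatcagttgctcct
Hbb-bt: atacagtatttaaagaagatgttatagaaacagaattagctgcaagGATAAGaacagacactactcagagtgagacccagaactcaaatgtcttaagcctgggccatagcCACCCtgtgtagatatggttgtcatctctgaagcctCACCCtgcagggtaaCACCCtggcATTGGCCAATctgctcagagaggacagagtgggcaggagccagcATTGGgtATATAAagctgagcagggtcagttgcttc
Alas2: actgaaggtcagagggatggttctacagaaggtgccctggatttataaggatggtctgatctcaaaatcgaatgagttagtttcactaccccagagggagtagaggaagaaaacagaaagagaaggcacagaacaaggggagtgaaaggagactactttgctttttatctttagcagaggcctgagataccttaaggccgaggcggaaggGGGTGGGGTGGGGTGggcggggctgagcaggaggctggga
The window of Hba-a2 (chr11:32296242-32296491, plus strand) is not printed because it matched that of Hba-a1 at a shift of 3 bases, with 0 mismatches over 247 bases. The Hbb-bs and Hbb-bt windows were 73.3% identical over 243 aligned bases.

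All 4 globin windows held exact matches to all 4 kinds of motif. By the same exact strings, the Alas2 window held only CACCC, 3 times and on the other strand (read as GGGTG). Variant forms of the motifs were not searched, so sites of the same factors in the Alas2 window are not excluded. Among 32851 RefSeq windows of the same length, GATAAG was found in 6.55%, CACCC in 52.0%, CCAAT in 33.8% and ATATAA in 9.10%. All 4 kinds stood together in 46 windows (0.140%), the 4 globin windows among them. The windows of Hba-a1 and Hba-a2 hold the same bases apart from their shift, so they are not separate cases. These shares are a description and no test of enrichment. GATAAG lay 182 bases before the start of Hba-a1. Hbb-bt held 3 matches of CCAAT, the most of any member, and 3 of CACCC. Such matches describe letters in a window and not binding.

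The near-identity of the genes also limits how their counts can be split. The tag-based method used here reads near the 3′ end of transcripts. Of the 201 windows of 100 bases in the last 300 bases of the transcript, 101 of Hba-a1 (50.2%) were also found in Hba-a2, and 85 of Hba-a2 (42.3%) in Hba-a1. For Hbb-bs and Hbb-bt the shared windows numbered 42 (20.9%) and 41 (20.4%), and Alas2 had 0. Whole transcripts differed at 1 of 538 aligned bases between the alpha genes and at 46 of 626 between the beta genes. Counts within each pair are therefore uncertain, most of all between Hba-a1 and Hba-a2, and the sum of a pair is more secure than its parts.

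Total counts ran from 1035036 to 2089308 per mouse, and the ranges of the 3 donor groups overlapped. The tissue label was checked against neuronal markers: Snap25, a synaptic fusion protein, stood at 1567 ± 183 CPM and Slc17a7, the vesicular glutamate transporter of cortical excitatory neurons, at 421 ± 61.5 CPM (counts scaled to a common library size, with TMM factors; SD, n = 32). No pair of libraries held identical values. Of 34 other red cell genes in the table, 7 had a mean under 1 CPM, 10 between 1 and 10 CPM and 17 above. Among the low ones, Slc4a1, the band 3 anion exchanger, had 13 counts over all 32 mice, the erythroid regulators Klf1 and Gata1 16 and 20, and Car1 0, whereas Epb42, a membrane skeleton protein, had 332 and Rhag, a Rhesus-associated membrane protein, 139.

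Globin RNA was a small part of every library. The 4 globin genes together had 106 to 493 counts per mouse (median 159), which was 0.00681% to 0.0295% of the library. On the CPM scale the sum was lowest at 67.9 and highest at 296, a 4.36-fold range. Mice given human microbiota ran from 83.8 to 296 (median 117, mean 129.6 ± 56.4), mice given squirrel monkey microbiota from 67.9 to 289 (median 121, mean 161 ± 89.0) and mice given macaque microbiota from 68.9 to 186 (median 89.7, mean 97.9 ± 31.8; SD, n = 12, 8 and 12). The ranges of the 3 groups overlapped, but that of the macaque group ended at 186, below the highest mice of the other groups. A few mice made up the upper end: human replicate 1 of batch A at 296, squirrel monkey replicate 6 of batch D at 289, replicate 1 of batch C at 263 and replicate 7 of batch D at 242. The next was macaque replicate 2 of batch E at 186, and it was the highest of its group.

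**Figure D1:**
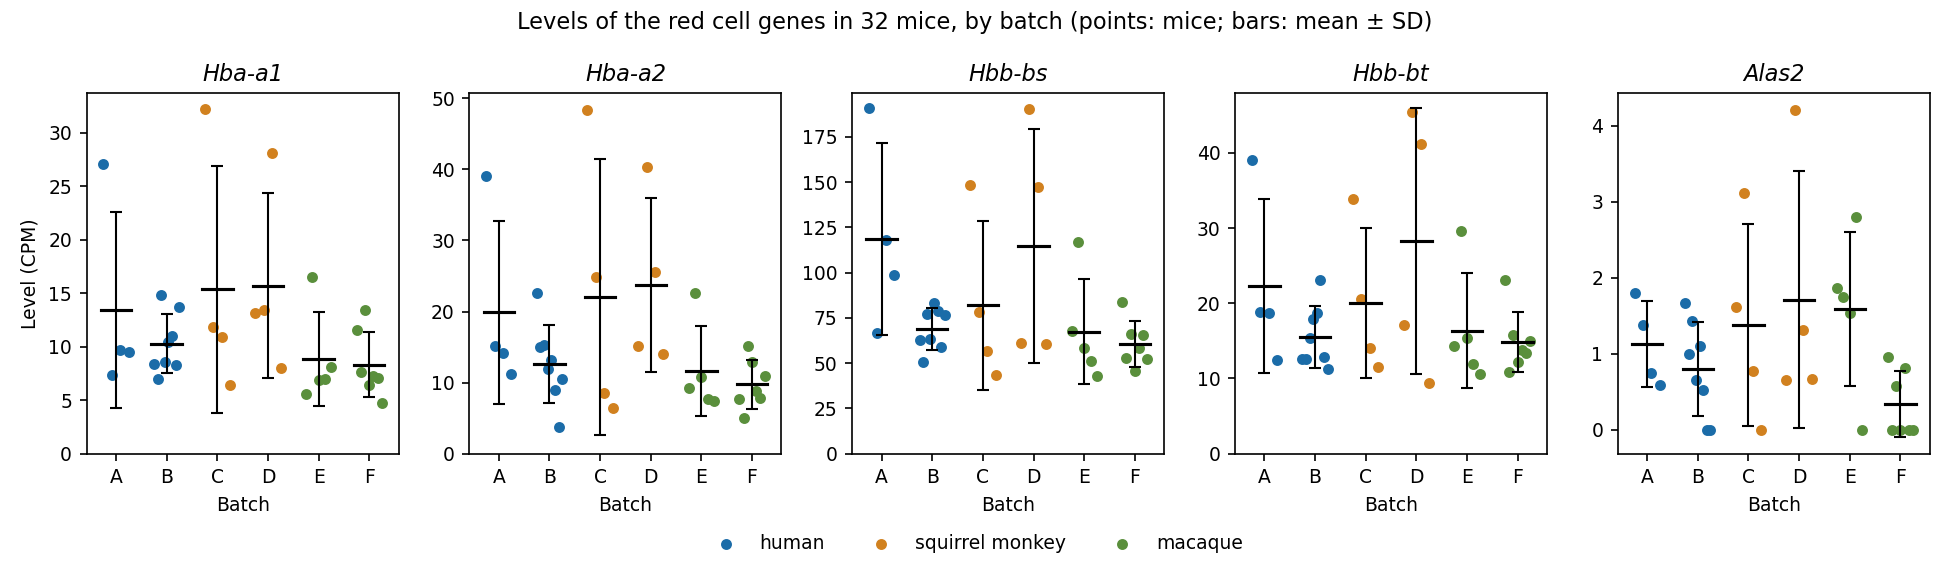
Level of each of the 5 members in every mouse (y axis, CPM, a linear scale of its own in each panel) by batch (x axis), coloured by donor species; points are mice and bars are batch means ± SD. Most mice of all batches lie together in the globin panels, and human replicate 1 of batch A (27.05 CPM for Hba-a1, 191 CPM for Hbb-bs) stands above the others of its batch.

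Hba-a1 encodes an adult alpha chain. Its level was 7.02 to 27.05 CPM in mice given human microbiota (median 9.59, mean 11.3 ± 5.49), 6.41 to 32.3 CPM with squirrel monkey microbiota (median 12.5, mean 15.5 ± 9.43) and 4.77 to 16.6 CPM with macaque microbiota (median 7.16, mean 8.52 ± 3.49; SD, n = 12, 8 and 12). The groups overlapped, but 11 of 12 human and 7 of 8 squirrel monkey mice lay above the macaque median. Above the highest macaque mouse were only human replicate 1 (27.05 CPM) and squirrel monkey replicates 1 and 7 (32.3 and 28.1 CPM).

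Hba-a2, the second adult alpha gene, had the largest ratio of highest to lowest mouse of the 4 globins (12.8-fold), from 3.77 CPM in human replicate 11 to 48.4 CPM in squirrel monkey replicate 1. The mean was 15.1 ± 8.78 CPM with human (median 13.7, highest 39.1), 22.9 ± 15.04 CPM with squirrel monkey (lowest 6.41, median 20.03) and 10.5 ± 4.68 CPM with macaque microbiota (lowest 5.08, median 9.09, highest 22.6; SD, n = 12, 8 and 12). Of the squirrel monkey mice, 4 of 8 lay above the highest macaque mouse, whereas 1 of 12 human mice did. In batches C and D the 8 values were 48.4, 24.9, 8.57 and 6.41 CPM, and 15.1, 40.4, 25.5 and 14.02 CPM, so that high and low mice stood in both batches.

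Hbb-bs, an adult beta chain gene, had the most counts of the members, 68 to 318 per mouse. Its level ran from 50.7 to 191 CPM with human (median 76.8, mean 85.5 ± 38.0), from 43.6 to 190.2 CPM with squirrel monkey (median 69.9, mean 98.3 ± 55.1) and from 42.8 to 117 CPM with macaque microbiota (median 58.3, mean 63.4 ± 20.1; SD, n = 12, 8 and 12). The squirrel monkey group had a higher mean but a lower median than the human group, since 3 of its 8 mice stood at 147 CPM or more and the other 5 at 78.5 CPM or less. Batch A held 191, 66.6, 118 and 98.5 CPM, while the 8 mice of batch B lay between 50.7 and 83.5 CPM.

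Hbb-bt, the partner adult beta gene, had a mean of 17.8 ± 7.64 CPM with human (lowest 11.2, median 16.6, highest 39.1), 24.1 ± 14.05 CPM with squirrel monkey (lowest 9.35, median 18.8, highest 45.4) and 15.5 ± 5.54 CPM with macaque microbiota (lowest 10.6, median 13.99, highest 29.6; SD, n = 12, 8 and 12). The highest 4 mice for Hbb-bt were the same 4 as for Hbb-bs, in another order. For this gene 7 of 12 human mice and 6 of 8 squirrel monkey mice lay above the macaque median.

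Alas2 catalyses the step that starts haem synthesis in erythroid cells, and its RNA is low in circulating blood compared with globin RNA. It had 0 to 5 counts per mouse and 50 in all. The mean was 0.910 ± 0.597 CPM with human (highest 1.80), 1.54 ± 1.42 CPM with squirrel monkey (highest 4.21) and 0.858 ± 0.944 CPM with macaque microbiota (highest 2.80; SD, n = 12, 8 and 12). No count was seen in 8 of 32 mice (2 human, 1 squirrel monkey, 5 macaque), in which a count of 0 allows a level of up to 1.82 to 2.24 CPM (3 counts of the library total, counting error only). Most nonzero values lay under that limit, so at this depth most single mice with a count cannot be told apart from mice with 0.

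Ordered by batch mean, both alpha genes ran D, C, A, B, E, F from high to low. Hbb-bs ran A (118.5 ± 52.8 CPM), D (115 ± 64.6), C (81.8 ± 46.7), B (69.0 ± 11.6), E (67.3 ± 29.1) and F (60.6 ± 12.6; SD, n = 4, 4, 4, 8, 5 and 7). Hbb-bt ran D, A, C, E, B, F and Alas2 D, E, C, A, B, F. Batch F was lowest for all 5 members. For every member, each batch overlapped its neighbour in the order, and the gap between neighbouring means was smaller than the larger of their SDs.

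The donor groups were compared with edgeR's quasi-likelihood test over 12651 genes and all 32 mice, with Benjamini-Hochberg adjustment over these genes. The 4 globins passed the filter on low counts and Alas2 did not. The human and squirrel monkey comparisons share the same 12 macaque mice and are not independent of each other. With human against macaque microbiota, 0 of 4 globins passed the adjusted threshold of 0.05 in edgeR, DESeq2 or limma voom, where 8% of all genes passed in edgeR. Hbb-bs had a log2 fold change of 0.45 ± 0.21 SE (p = 0.0433, adjusted p = 0.199), and it was the only globin at an unadjusted p under 0.05, a level that 23.1% of all genes reached. The log2 fold changes of Hba-a1, Hba-a2 and Hbb-bt were 0.43 ± 0.26, 0.53 ± 0.29 and 0.24 ± 0.23 SE (adjusted p = 0.319, 0.286 and 0.591). Without human replicate 1, all 4 values were smaller by over 1.5 times: 0.24 for Hba-a1, 0.30 for Hba-a2, 0.27 for Hbb-bs and 0.073 for Hbb-bt. The Hbb-bs difference depended on the human batch: without batch B it was 0.91 ± 0.27 SE and passed (adjusted p = 0.0339), as did 8.24% of all genes, and without batch A it was 0.15 ± 0.21 SE (adjusted p = 0.778).

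With squirrel monkey against macaque microbiota the log2 fold changes were larger. Hba-a2 had 1.10 ± 0.31 SE (95% interval 0.47 to 1.73, p = 0.00112, adjusted p = 0.0849) and Hba-a1 0.87 ± 0.28 SE (0.31 to 1.42, p = 0.00335, adjusted p = 0.127). Hbb-bs had 0.63 ± 0.24 SE (adjusted p = 0.216) and Hbb-bt 0.65 ± 0.25 SE (adjusted p = 0.244). All 4 globins had an unadjusted p under 0.05, as did 13.2% of all genes, and 0 of 4 passed after adjustment in edgeR and in limma voom, where 0.64% of all genes passed in edgeR. DESeq2 called 1 of 4, Hba-a2 (1.12 ± 0.32 SE, adjusted p = 0.0428), and 1.22% of all genes. In edgeR, Hba-a2 passed without human replicate 1 (adjusted p = 0.0495), without squirrel monkey replicate 4 (0.0394) and without macaque replicate 2 (0.0483), and it did not pass in the other 29 fits that left out 1 mouse. Shares of all genes are not given for these fits.

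Leaving out whole batches did not turn the direction of any globin in these comparisons with macaque. In squirrel monkey against macaque, the fits without 1 batch gave 1.01 to 1.18 for Hba-a2, 0.83 to 0.91 for Hba-a1, 0.38 to 0.86 for Hbb-bs and 0.39 to 0.88 for Hbb-bt (log2 fold change). With counts summed per batch, 2 sums per donor group, both alpha genes passed (Hba-a1 0.86 ± 0.20 SE, adjusted p = 0.0323; Hba-a2 1.08 ± 0.20 SE, adjusted p = 0.00944), as did 1.41% of the 15701 genes tested in that fit. Between human and squirrel monkey microbiota, 0 of 4 globins passed in edgeR, DESeq2 or limma voom and 0 had an unadjusted p under 0.05 (shares of all genes in edgeR 0.134% and 10%). The log2 fold changes of human against squirrel monkey were -0.43 ± 0.26 for Hba-a1, -0.57 ± 0.29 for Hba-a2, -0.19 ± 0.23 for Hbb-bs and -0.41 ± 0.24 for Hbb-bt (SE, adjusted p = 0.613, 0.517, 0.847 and 0.604). Without human replicate 1 the values were -0.62, -0.80, -0.36 and -0.58, and without squirrel monkey replicate 1 those of the alpha genes were -0.21 and -0.34. The Hbb-bs value changed sign in some fits, for example 0.27 without batch B and 0.010 without squirrel monkey replicate 6.

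An F-test for any difference among the 3 groups gave adjusted p = 0.114 for Hba-a1, 0.0651 for Hba-a2, 0.174 for Hbb-bs and 0.231 for Hbb-bt. Thus 0 of 4 passed in edgeR (6.15% of all genes did), 4 of 4 had an unadjusted p under 0.05 (21% of all genes), and DESeq2 called 1 (and 6.82% of all genes) and limma voom 0. Without human replicate 1 or 11, squirrel monkey replicate 3 or 4, or macaque replicate 2, 1 globin passed in edgeR. The share of all genes passing in each of these fits is not given here, so these calls cannot be set beside it. The median log2 fold change of the 4 globins was 0.44, 0.76 and -0.42 in the 3 pairwise comparisons, beside -0.0011, 0.00072 and 0.0089 over all genes tested. Alas2 could be tested only without the filter, over 23685 genes, and did not pass (log2 fold change 0.16 ± 0.52, 0.80 ± 0.56 and -0.63 ± 0.53 SE; adjusted p = 0.936, 0.637 and 0.783, where 3.27%, 0.355% and 0.00422% of genes passed). Its F-test gave adjusted p = 0.674, where 2.45% of genes passed.

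**Figure D2:**
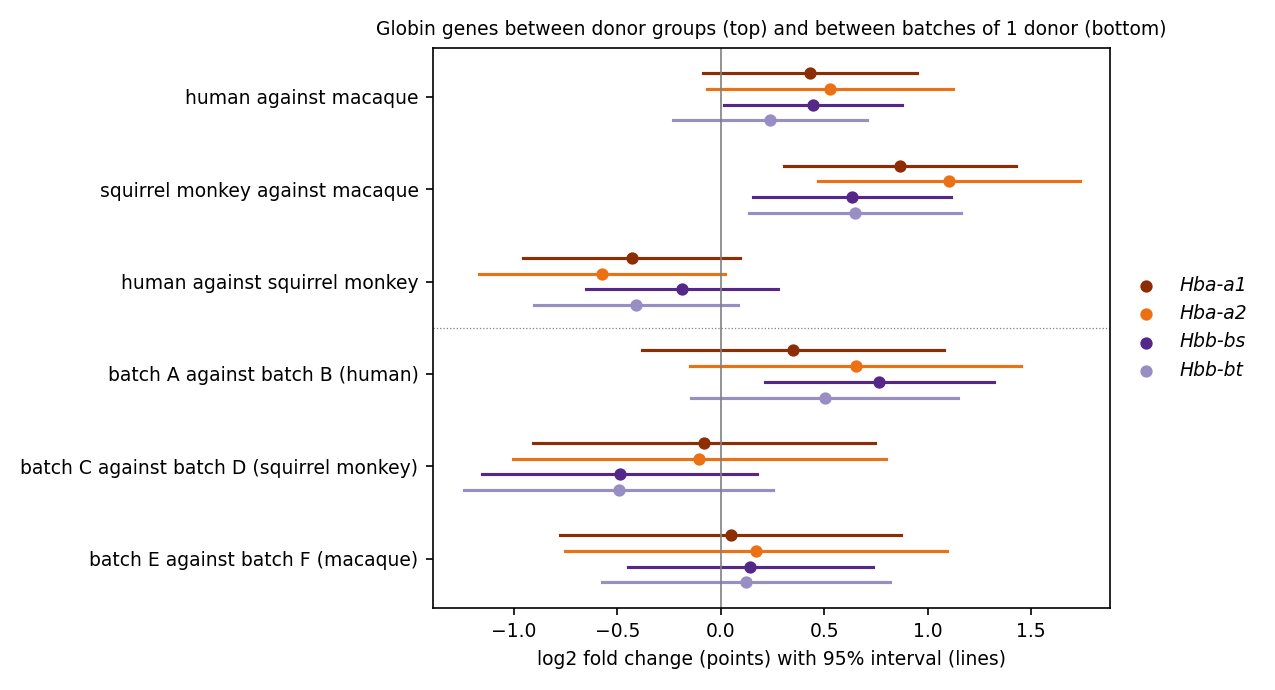
Log2 fold changes (x axis, points) of the 4 globins with 95% intervals from edgeR (lines), between donor groups in the upper rows and between batches of the same donor species in the lower rows. In squirrel monkey against macaque the estimates run from 0.63 to 1.10 with intervals above 0 before adjustment, and none of the 4 passed after adjustment over all genes.

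Batches of the same donor species were compared in a fit on the 6 batches. Between the human batches, Hbb-bs was 0.77 ± 0.27 SE higher in A than in B on the log2 scale (p = 0.00806, adjusted p = 0.301), a larger estimate than its difference between human and macaque microbiota. It was 1 of 4 globins at an unadjusted p under 0.05 (11.7% of all genes), and 0 passed after adjustment in edgeR, DESeq2 or limma voom (0.0237% of all genes in edgeR). Hba-a1, Hba-a2 and Hbb-bt had 0.35 ± 0.36, 0.65 ± 0.39 and 0.50 ± 0.32 SE between A and B. Without human replicate 1 the values were 0.43 for Hbb-bs, -0.25 for Hba-a1, 0.11 for Hba-a2 and 0.090 for Hbb-bt. Alas2 had 0.47 ± 0.70 SE (adjusted p = 0.878 in the fit without the filter, where 0.0253% of genes passed).

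Batch C against batch D gave -0.080 ± 0.41 for Hba-a1, -0.10 ± 0.44 for Hba-a2, -0.49 ± 0.33 for Hbb-bs and -0.49 ± 0.37 SE for Hbb-bt. Single mice moved these values: without squirrel monkey replicate 1 they were -0.71, -0.79, -0.93 and -0.85, and without replicate 6 Hbb-bs was -0.16 and Hbb-bt -0.20. Batch E against batch F gave 0.048 ± 0.41, 0.17 ± 0.45, 0.14 ± 0.29 and 0.12 ± 0.34 SE for the same genes. In both, 0 globins passed in edgeR, DESeq2 or limma voom and 0 had an unadjusted p under 0.05 (0% of all genes passed in each, 6.99% and 3.15% had an unadjusted p under 0.05). Alas2 had 11 counts in the 5 mice of batch E and 3 counts in the 7 mice of batch F (log2 fold change 2.097 ± 0.81 SE, p = 0.0123, adjusted p = 0.997 in the fit without the filter, where 0% of genes passed).

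The globins were among the more variable genes of the tissue within donor groups. The biological coefficient of variation, edgeR's estimate of the spread between mice of a group beyond counting error, was 0.351 for Hba-a1, 0.430 for Hba-a2, 0.343 for Hbb-bs and 0.339 for Hbb-bt, against a common value of 0.138. Over all 12651 genes these lie at percentiles 97.6, 98.9, 97.3 and 97.2. Among the 500 genes nearest in level, Hbb-bs and Hba-a2 both lay at the 99.4th percentile, Hbb-bt at the 96.8th and Hba-a1 at the 95.8th. For Hbb-bs the median of those neighbours was 0.0988.

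**Figure D3:**
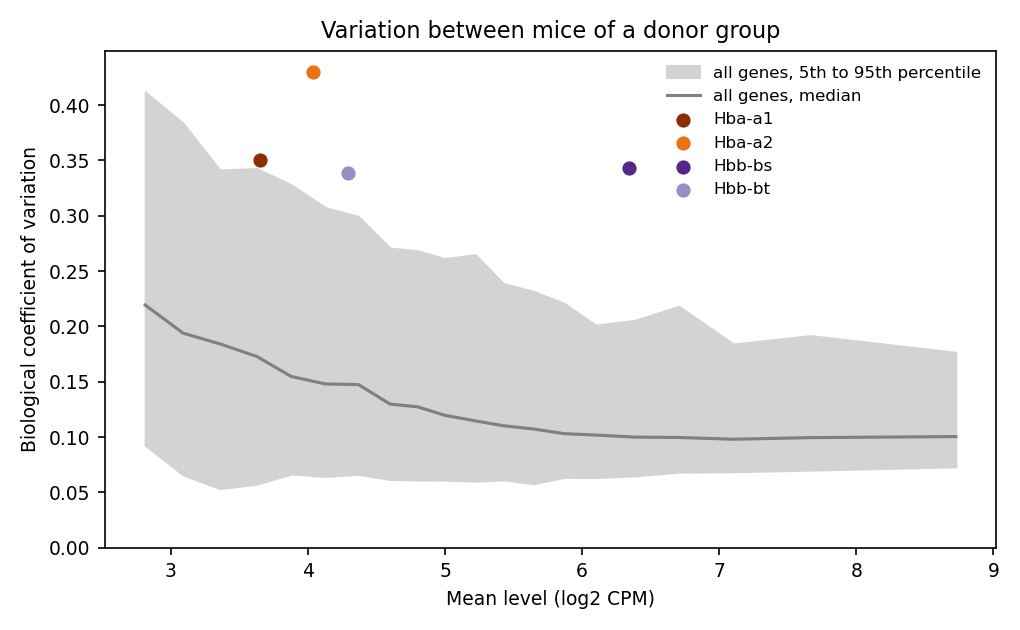
Biological coefficient of variation (y axis) against mean level (x axis, log2 CPM), with the 4 globins as points, the median of all genes tested as a line and their 5th to 95th percentile as a grey band. The globins lie between 0.339 and 0.430, above the band for genes of their level.

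From mouse to mouse, Hbb-bs, Hbb-bt and Hba-a1 varied together. After batch means were removed, Hbb-bs correlated with Hbb-bt at r = 0.872 (rho = 0.832) and with Hba-a1 at r = 0.792 (rho = 0.772) over 32 mice (log2 CPM, permutation within batches, adjusted p = 6e-05 for each r over 4 relations). Without squirrel monkey replicates 1 and 6, the mice whose Hbb-bs level, after batch means were removed, was farthest from the median, r was 0.839 and 0.821. Within batches B and F, which held 8 and 7 mice, r was 0.508 and 0.827 for Hbb-bt and 0.826 and 0.709 for Hba-a1. The other batches held too few mice for a value of their own.

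Hba-a2 followed Hbb-bs less evenly. Pooled r was 0.681 (rho = 0.610, permutation p = 0.00053, adjusted p = 0.000707) and 0.581 without the 2 farthest mice, but within batch B it was 0.0467 and within batch F -0.155. The relation was not seen in those batches, whose few mice leave each r imprecise. Within donor groups, where batch means were not removed, r was 0.541 in the human, 0.915 in the squirrel monkey and 0.536 in the macaque mice. The split of counts between the alpha genes is uncertain, and a correlation of their sum with Hbb-bs was not computed. Alas2, with at most 5 counts per mouse, had r = 0.539 (rho = 0.525, permutation p = 0.0112, adjusted p = 0.0112), with 0.465 without the 2 farthest mice, 0.00793 in batch B and 0.699 in batch F. At such counts these values for Alas2 are given as a description only.

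**Figure D4:**
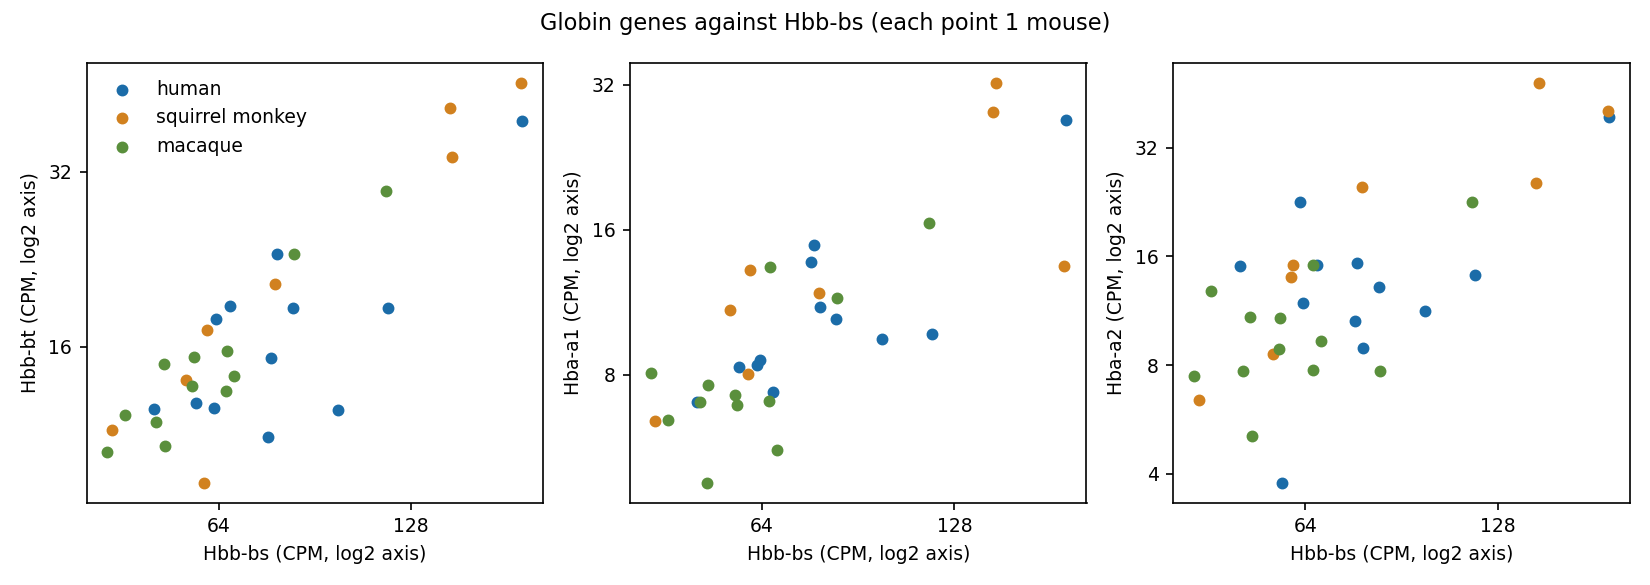
Level of Hbb-bs (x axes) against Hbb-bt, Hba-a1 and Hba-a2 (y axes) in the 32 mice, in CPM on log2 axes, coloured by donor species; batch means are not removed here. Mice high in Hbb-bs are mostly high in the other globins, and the points of Hba-a2 scatter most.

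The make-up of the globin counts was also read within each mouse. These are shares of counts and not of transcripts, since copies share bases, and they are compared between mice only. The alpha genes held 21.3% of all 6038 globin counts (exact binomial 95% interval 20.2% to 22.3%, counting error only): 20.5% in the human, 23.9% in the squirrel monkey and 19.6% in the macaque group. Single mice ran from 14.4% (human replicate 11, 8.47% to 22.4%) to 30.7% (squirrel monkey replicate 1, 25.7% to 35.99%), and the chi-square per degree of freedom over mice was 2.18, more than counting error gives. Hba-a2 held 57.3% of alpha counts (54.6% to 60.0%) and ran from 31.2% of 16 counts in human replicate 11 to 75.0% of 64 counts in squirrel monkey replicate 6, with a chi-square per degree of freedom of 1.49.

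The split of beta counts varied less over the 32 mice. Hbb-bt held 18.7% of them (17.6% to 19.8%), 17.4% in the human, 19.8% in the squirrel monkey and 19.5% in the macaque group. Single mice ran from 11.2% (human replicate 4) to 22.7% (human replicate 10), and the chi-square per degree of freedom was 0.894. Within the human group it was 1.63, against 0.611 in the squirrel monkey and 0.214 in the macaque group, and the interval of human replicate 4 (7.09% to 16.7% of 187 beta counts) lay below that of the pooled share.

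**Figure D5:**
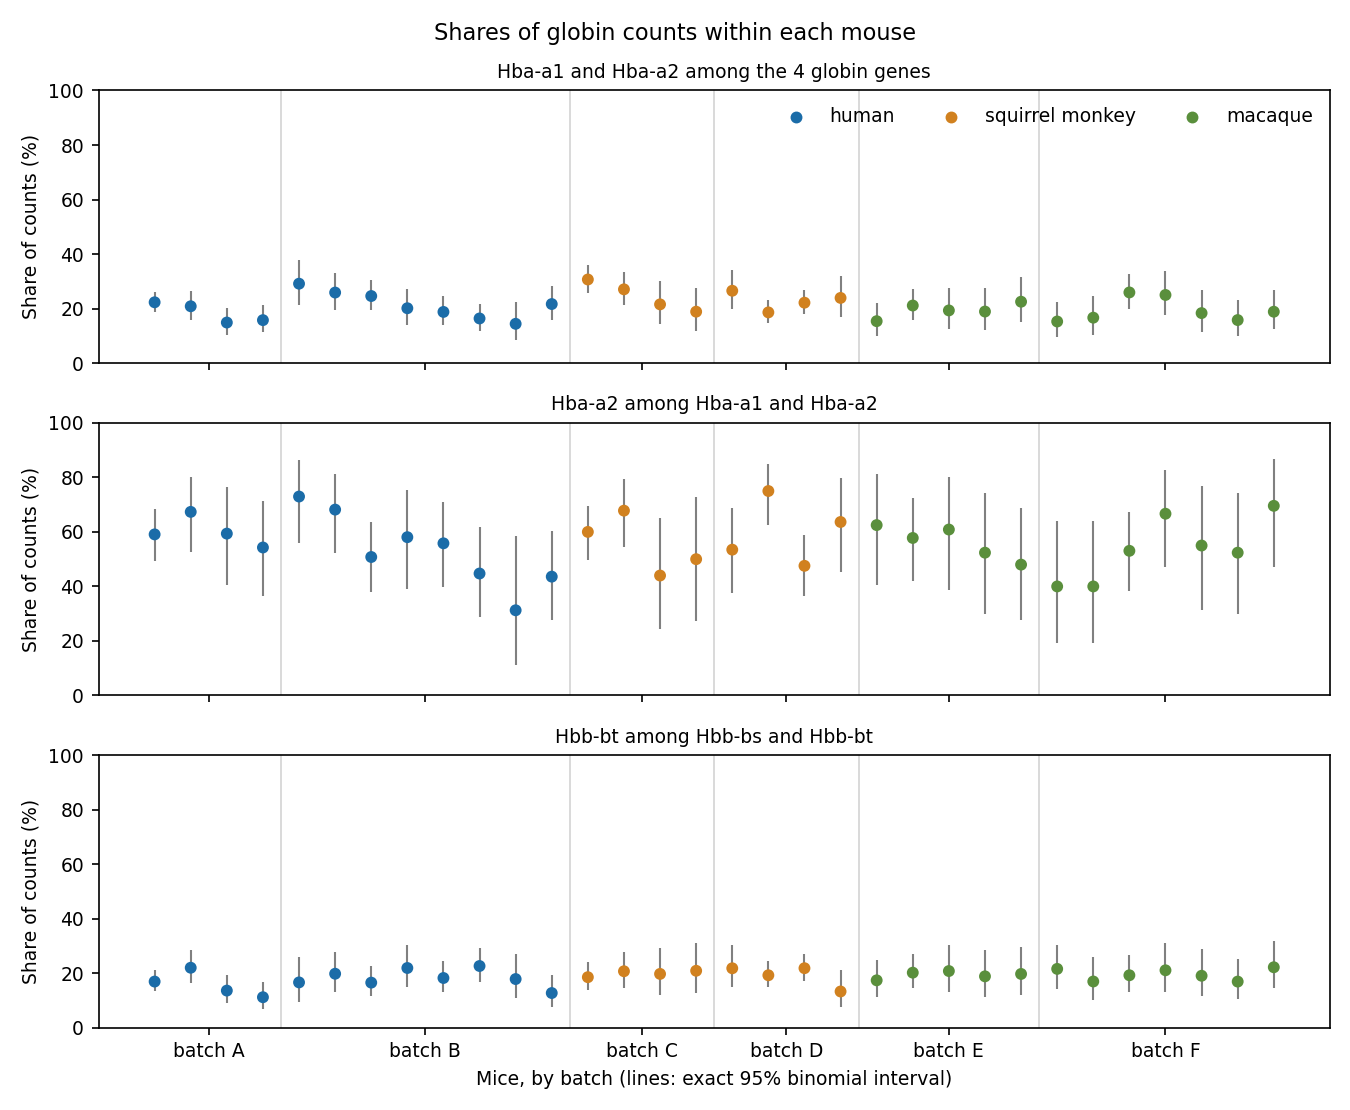
Share of counts in each mouse (y axis, percent, with exact binomial 95% intervals) for the alpha genes among the 4 globins, Hba-a2 among the alpha genes and Hbb-bt among the beta genes, by batch. The beta share lies between 11.2% and 22.7%, and the Hba-a2 share between 31.2% and 75.0%.

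No other gene of haem synthesis or of the red cell list passed between donor groups. Of 13 haem synthesis genes besides Alas2, 12 were tested and 0 rose or fell in any of the 3 pairwise comparisons. Their median log2 fold change was 0.014 for human and -0.047 for squirrel monkey against macaque. Alad, the enzyme that follows Alas in the pathway, had -0.12 ± 0.085 SE for human against macaque (edgeR adjusted p = 0.432). Of 35 genes of the red cell membrane, erythroid regulators and reticulocyte RNAs, 19 were tested and 0 rose or fell. Those tested include genes of other cells, such as Slc2a1, the glucose transporter of brain vessels (0.40 ± 0.15 SE for squirrel monkey against macaque, adjusted p = 0.241).

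Among other globins, Ngb (neuroglobin) and Cygb (cytoglobin), which are expressed in neurons and fibroblast-like cells, were tested and did not pass. The embryonic gene Hbb-y had 5 counts in all mice together and the theta genes Hbq1a and Hbq1b 11 and 1. Of 12 genes of haem and haemoglobin clearance and iron storage, 8 were tested. Slc48a1, a haem transporter, rose with human against macaque microbiota (0.24 ± 0.075 SE, adjusted p = 0.0416), and the others did not pass, among them the ferritin light chain gene Ftl1 (-0.25 ± 0.090 SE, adjusted p = 0.0746). In squirrel monkey against macaque 0 of the 8 passed.

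Markers of other blood cells were mostly low but not all near 0. Of 24 white blood cell genes, 20 were in the table: 11 had a mean under 1 CPM, 8 between 1 and 10 CPM, and 1 above. S100a8 and S100a9, abundant in neutrophils, had 19 and 14 counts over 32 mice, whereas Ccr2, a monocyte chemokine receptor, had 239 (4.77 CPM). Of these genes 3 were tested, with 0 passing. The summed level of the list was 138 to 213 CPM in the human, 154 to 201 CPM in the squirrel monkey and 146 to 206 CPM in the macaque group, most of it from Coro1a (138 ± 16.7 CPM over all 32 mice), a gene that brain cells also express. Of 7 platelet genes, 3 had a mean under 1 CPM and 4 between 1 and 10 CPM, the highest being Itga2b, an integrin subunit, with 254 counts (5.04 CPM). None of the 7 was tested, and their summed level was 10.6 to 27.6, 9.35 to 24.3 and 8.67 to 21.7 CPM in the same groups.

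Scores of mural and meningeal fibroblast genes moved with Hbb-bs across mice to a lesser degree than the other globins, and the endothelial score did not pass. With batch means removed, r was 0.520 for a mean score of 9 mural cell genes (rho = 0.494, permutation adjusted p = 0.0150 over 6 relations) and 0.512 for 12 meningeal fibroblast genes (rho = 0.494, permutation adjusted p = 0.0127). Without the 2 farthest mice r was 0.494 and 0.475, but within batch B it was 0.134 and 0.180 and within batch F 0.531 and 0.455. For 18 endothelial genes r was 0.406 (rho = 0.413, permutation adjusted p = 0.0884), 0.292 without the 2 farthest mice, 0.175 in batch B and 0.264 in batch F. Oligodendrocyte genes (r = 0.280, rho = 0.242) and cortical neuron genes (r = -0.0924, rho = -0.157) did not pass (permutation adjusted p = 0.173 and 0.632). Within batches B and F the oligodendrocyte r was 0.279 and 0.780 and the neuron r -0.214 and 0.251. Within donor groups, where batch means were not removed, the oligodendrocyte r was 0.544 in the human, -0.0953 in the squirrel monkey and 0.551 in the macaque mice. By the same reckoning the endothelial r was 0.522 in the human, 0.678 in the squirrel monkey and -0.0249 in the macaque mice. The log2 library total had r = -0.378 (rho = -0.279, permutation adjusted p = 0.0504), with 0.326 in batch B and -0.655 in batch F.

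Summed levels of these lists overlapped between donor groups. The mural genes had 181 to 551 CPM in the human, 197 to 436 CPM in the squirrel monkey and 205 to 478 CPM in the macaque group, and the fibroblast genes 143 to 655, 189 to 522 and 157 to 537 CPM. In the tests, 0 of 9 mural genes passed, and of 12 fibroblast genes 1 rose with human and with squirrel monkey against macaque microbiota: Igf2, a growth factor gene of the meninges (0.99 ± 0.29 and 1.47 ± 0.31 SE, adjusted p = 0.0273 and 0.0132). Of 18 endothelial genes, 3 rose with human against macaque microbiota (Bsg, Slc7a5 and Ly6c1) and 0 with squirrel monkey. The list had no common direction: 9 values were positive and 9 negative with human, and 8 and 10 with squirrel monkey. Slco1a4 was lower with squirrel monkey against macaque microbiota (-0.59 ± 0.16 SE, edgeR adjusted p = 0.0621) but did not pass in this comparison. Of 10 oligodendrocyte genes, 3 rose with human microbiota and 0 with squirrel monkey, at a median log2 fold change of 1.26 and 1.03. Of 12 cortical neuron genes, Slc17a7 rose (0.25 ± 0.069 SE, edgeR adjusted p = 0.0163) and Neurod6 fell (-0.41 ± 0.12 SE, adjusted p = 0.0321) with human against macaque microbiota. Neurod6 also fell with squirrel monkey against macaque microbiota (-0.64 ± 0.14 SE, edgeR adjusted p = 0.0216). The other neuron genes did not pass in either comparison. Over all genes tested, 8% passed with human and 0.64% with squirrel monkey against macaque microbiota. The part of these cells in the globin differences was not tested beyond a fit with the endothelial score as a covariate, in which Hba-a2 had 1.03 ± 0.30 SE (adjusted p = 0.0609) for squirrel monkey against macaque.

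Of 12655 genes with a mean of at least 5 CPM, the 3 with the highest r with Hbb-bs over the 32 mice were Hbb-bt, Hba-a1 and Hba-a2. Genes that followed and are no members included Ezr, the membrane linker ezrin (r = 0.68), Dap (0.64), Gja4, the arterial gap junction protein connexin 37 (0.63), Lhx2 (0.63), Arpc1b (0.62), Ctnnbl1 (0.62), Synpo2 (0.61), Vegfa, a vascular growth factor (0.61), and Fmnl3 (0.61). The lowest were Celsr2 (-0.64), Nckap5l (-0.62), Arhgap1 (-0.62), Abca5 (-0.61) and Ftl1-ps1 (-0.60). The middle 95% of all genes lay between -0.40 and 0.43. These values share libraries and depth and are a description with no p.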

How the data were processed

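Frontal cortex RNA of 32 mice was sequenced with TagSeq, per the labels' protocols. The deposited table holds raw counts per gene made by the authors. The submitters' processing notes name the build GRCm39, and the aligner, counting tool, annotation and use of strand were not given in the sources used here. Another 3 columns matched no sample and were not used. Gene names were matched for all but 76 rows, which held 0.0310% of counts.

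Total counts were 1035036 to 2089308 per mouse (median 1534710), so that 5 CPM correspond to 7.67 counts at median depth. Counts were tested with edgeR 4.0.16 in R 4.3.3 (quasi-likelihood test, TMM factors 0.956 to 1.04, filterByExpr with minimum count 10 and minimum total 15, which kept 12651 genes), with Benjamini-Hochberg adjustment over all genes at 0.05. All mice entered one fit on the 3 donor groups, and another on the 6 batches. Adding batch beside donor group was impossible, since batches are nested in groups.

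Correlations used log2 CPM (prior count 2) with 100000 permutations within batches in Python 3.11.15 with SciPy 1.17.1. Both scripts were tested on simulated data. Alternatives were DESeq2 1.42.0, limma 3.58.1 voom, other scalings and filters, covariates, sums per batch, and leaving out each mouse or batch. Promoters came from RefSeq (GRCm38.p6), and transcript copies from GENCODE transcripts of GRCm38, so no coordinates of counted genes are given. Named were all members, up to 4 genes per list by smallest F-test p, and the 10 genes of highest and 5 of lowest r with Hbb-bs with a mean of at least 5 CPM (1 unnamed gene model was passed over at each end). Low-count markers were named for their role. The members and gene lists were chosen with earlier results of these data known. Some genes that these rules name are left out of the text.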

Additional observations from a re-analysis of the deposited data

Results flagged for a closer look

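Within batches and the squirrel monkey group, a single mouse stood far from the others in 6 of 35 groups of 4 to 8 values tested with Dixon's 95% criterion. The criterion flags about 1 in 20 groups by chance if values are normally distributed and groups are separate. Here CPM were not log-transformed, and the squirrel monkey group repeats the mice of batches C and D. The number of flags can therefore not be set against that rate. Human replicate 1 was far above the other mice of batch A for Hba-a1 (27.05 CPM, nearest 9.70) and for Hba-a2 (39.1 CPM, nearest 15.2). Macaque replicate 2 was far above the others of batch E for Hba-a1 (16.6 CPM, nearest 8.07), Hba-a2 (22.6 CPM, nearest 10.8) and Hbb-bt (29.6 CPM, nearest 15.4). Macaque replicate 6 was far above the others of batch F for Hbb-bt (23.1 CPM, nearest 15.7). All 6 are high values and come from 3 mice. Values of the members in a mouse are not independent of each other.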

How the results depend on the processing

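No paired analysis was possible because the labels give no replicate numbers and each mouse belongs to 1 donor group. The number of globins called in human against macaque was 0 and became 1 without batch B. In squirrel monkey against macaque it was 0 and became 1 with DESeq2 and 2 with counts summed per batch, and 0 to 1 when each mouse was left out. In the F-test it became 1 with DESeq2, 2 with sums per batch, 1 without batch B, and 0 to 1 when each mouse was left out. Shares of all genes are not given for the F-test with sums per batch or without batch B, or for fits without 1 mouse. Whether the globins or all genes gained calls in those fits therefore cannot be told here. No member passed in human against squirrel monkey or between batches under any alternative run. The log2 fold change of Hbb-bs in human against squirrel monkey changed sign with the library total as covariate (0.065), without batch B (0.27), without batch D (0.077) and over single mice left out (-0.36 to 0.010). Hba-a1 between batches E and F was -0.011 with limma voom. With each mouse left out, Hba-a1 ran from -0.25 to 0.58 between A and B, from -0.71 to 0.37 between C and D and from -0.26 to 0.23 between E and F. Hba-a2 ran from -0.79 to 0.24 (C and D) and from -0.18 to 0.32 (E and F), Hbb-bs from -0.93 to -0.16 (C and D) and from -0.13 to 0.27 (E and F), and Hbb-bt from -0.85 to -0.20 (C and D) and from -0.17 to 0.25 (E and F). For these the cause was not tested. The correlation with the endothelial score was 0.44 and passed with donor group means removed (permutation adjusted p = 0.0490). Other alternatives for calls left the count unchanged. Alas2 was under the filter and could not be fitted in most alternatives, and counts of 5 to 65 per mouse limit the precision of the alpha genes.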
